A study of Mus musculus with 4 samples.

Results

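The genes of C-type natriuretic peptide (CNP) and of the 3 natriuretic peptide receptors were followed across the cell types of the mouse ovary. The 4 genes are Nppc, Npr1, Npr2 and Npr3, taken by symbol from the 32285 genes counted, and all 4 were found once in each library. The system was chosen by a measured value, the higher Nppc level with anti-Müllerian hormone (AMH) in granulosa cells, so that difference is described here and not tested. Ovaries came from mice at postnatal day 25 in 4 treatment groups with 1 library each. The control group received PBS or saline, the doxorubicin group 2 weekly doses of 3 mg/kg, the doxorubicin+AMH group the same doses with recombinant human AMH at 0.75 mg/kg, and the AMH group 0.75 mg/kg AMH alone. Doxorubicin is a chemotherapeutic that damages DNA, and AMH is a hormone of growing follicles. Per the labels, tissue was taken 4 hours after the last dose, and each library is a pool of single ovaries from 5 mice. Neither strain nor route of dosing is given in the sources used here. With 1 pooled library per group no difference between treatments has a replicate check, and no test between groups was made. Intervals are exact 95% intervals and cover counting error only.

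Nppc encodes the precursor of CNP, a peptide that granulosa cells of the growing follicle release. Npr2 encodes the CNP receptor, a membrane guanylyl cyclase that makes cyclic GMP (cGMP), and cGMP passing through gap junctions is known to hold the oocyte in meiotic arrest until luteinizing hormone ends the signal. Npr1 encodes the related cyclase that answers the atrial and B-type peptides, and Npr3 a receptor that binds all 3 peptides and removes them without making cGMP.

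The part of Nppc that codes for the active peptide is shown for reference. The codons of its disulfide ring, from cysteine to cysteine, are in capitals. Counts are for the whole gene, and no read was matched to this stretch. In GRCm38 with GENCODE M21 the gene spans chr1:86666291-86670571 on the minus strand, and these 66 bases lie at chr1:86669667-86669732 in exon 2 of 3. They are the last 22 of 126 codons, and codons 6 to 22 of the stretch form the ring.
Nppc peptide coding sequence: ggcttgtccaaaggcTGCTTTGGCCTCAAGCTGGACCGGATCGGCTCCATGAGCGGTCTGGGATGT

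The promoter of Nppc is shown because the first results turn on the level of this gene. It is the 250 bases before the RefSeq start on GRCm38.p6, chr1:86670574-86670823, minus strand, with 4 motif matches in capitals.
Nppc promoter: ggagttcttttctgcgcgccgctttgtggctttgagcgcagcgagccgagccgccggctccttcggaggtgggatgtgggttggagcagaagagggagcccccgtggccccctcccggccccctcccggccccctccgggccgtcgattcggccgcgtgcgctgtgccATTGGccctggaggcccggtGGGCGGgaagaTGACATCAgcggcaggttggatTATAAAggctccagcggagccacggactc

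The window holds TATAAA from 29 to 24 bases before the start, the complement of CCAAT from 82 to 78, GGGCGG from 62 to 57 and TGACATCA from 51 to 44. Of the 32851 RefSeq promoter windows of the same length, searched on both strands, 12.4% held TATAAA, 33.8% CCAAT, 32.7% GGGCGG and 2.93% TGACATCA. The last motif was added to the search after this promoter had been read. The Nppc window had no match to TGACGTCA, the cyclic AMP response element, which 1.55% of all windows held. It had none to GGCGCC, a Smad motif (9.59% of windows), none to the shorter Smad box CAGAC (42.2%), and none to the nuclear receptor motif AAGGTCA (4.08%). Among the receptors, the Npr1 window held CCAAT once and GGGCGG at 2 places, the Npr2 window GGCGCC once, and the Npr3 window CCAAT once. G and C made up 69.2% of the Nppc window, 70.4% of Npr1, 64.4% of Npr2 and 38.8% of Npr3, against a median of 52.4% over all windows.

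The receptor genes lie at chr3:90450591-90465866 on the minus strand (Npr1), chr4:43631935-43651244 on the plus strand (Npr2) and chr15:11839896-11907287 on the minus strand (Npr3). Each overlaps a gene on the opposite strand, Gm16048, Gm12473 and Gm5144 in that order, while Nppc overlaps none. Whether the counting used strand, and so kept reads of each receptor apart from those of its antisense partner, is not given in the sources used here.

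The libraries held 7141 to 9478 cell barcodes and 138647495 to 178279122 unique molecular identifiers (UMIs, tags that count each captured transcript once). Pairs of libraries shared 11 to 24 barcodes. After filtering, 28631 cells fell into 33 clusters, of which 31 carried fixed markers of 11 cell classes and 2, with 308 cells, stayed unnamed. The 4 genes and the pathway genes below took no part in the clustering. Every set of 4 values is given from here on for control, then doxorubicin, then doxorubicin+AMH, then AMH. Granulosa-like cells numbered 2153, 1993, 2325 and 3044, with median UMIs per cell of 22461, 22809, 20920 and 16175. All 8 granulosa markers were detected in them in each library, with a summed level from 4609 to 6396 CPM. No cluster was named oocyte-like, luteal or B lymphocyte-like, so the oocyte side of the pathway was not analysed here. Levels are in CPM (counts-per-million), that is a gene's UMIs scaled to all UMIs of its class, and they compare libraries or classes for 1 gene, not genes with each other.

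The ligand was a granulosa gene: of 48892 Nppc UMIs in kept cells, 93.6% lay in granulosa-like cells. In these cells Nppc stood at 82.2 CPM in the control library (interval 80.0 to 84.4) and 95.2 with doxorubicin (92.8 to 97.7). With AMH it stood at 211 (208 to 214), and with both agents at 291 (287 to 295). Both libraries with AMH were above both without it, and no 2 of the 4 intervals overlapped. The level was 2.57-fold higher with AMH than in control (2.49 to 2.65) and 3.06-fold higher with doxorubicin+AMH than with doxorubicin (2.97 to 3.15). On the log2(CPM + 5) scale these differences were 1.31 and 1.56, which rank 6 and 2 from the highest of 6617 genes whose mean level reached 20 CPM. Of those genes, 0.62% were at least 1.5-fold higher with AMH than in control, 0.846% with doxorubicin+AMH than with doxorubicin, and 0.287% in both pairs. The choice of the gene used this contrast, so nothing is read from its rank.

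Doxorubicin went with smaller differences in Nppc. The level was 1.16-fold higher with doxorubicin than in control (1.12 to 1.20) and 1.38-fold higher with doxorubicin+AMH than with AMH alone (1.35 to 1.41), neither past 1.5-fold. In those comparisons 0.0756% and 0.151% of granulosa genes were at least 1.5-fold higher.

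**Figure D1:**
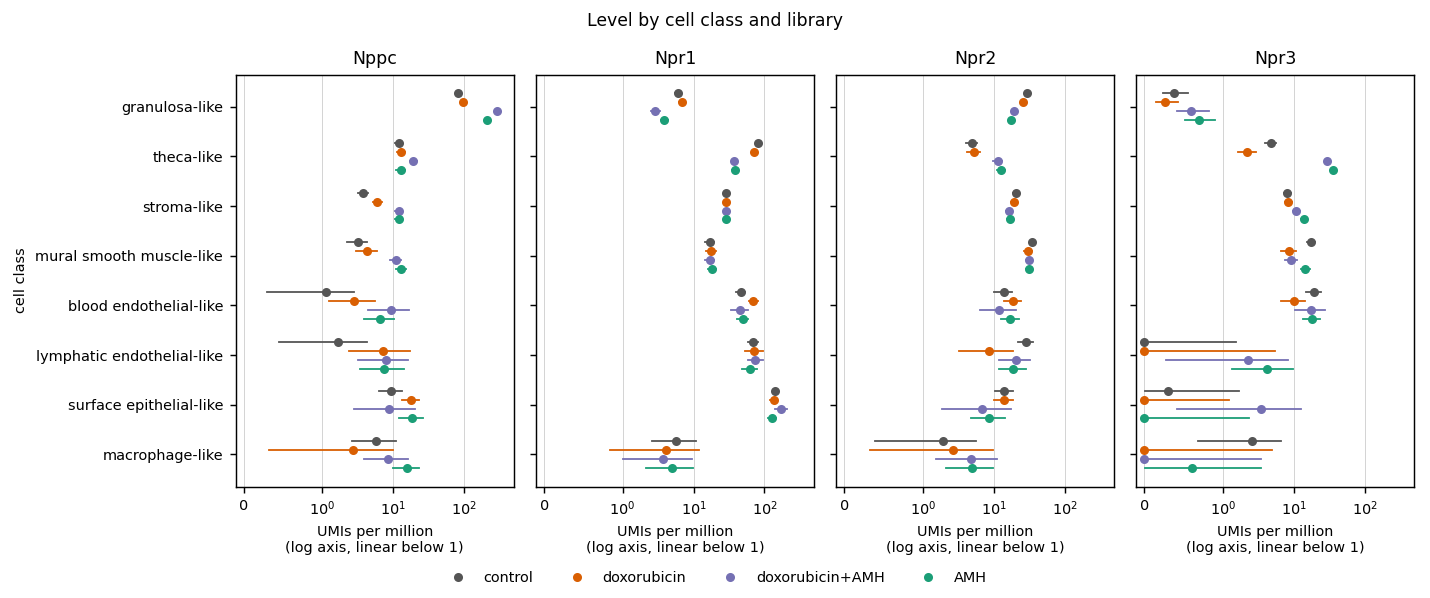
Level of each member (CPM, log axis that is linear below 1) in 8 cell classes, with 1 point per library and bars for the exact 95% Poisson interval. Nppc in granulosa-like cells ran from 82.2 in control to 291 in doxorubicin+AMH, Npr1 was highest in surface epithelial-like cells at 127 to 172, and Npr3 in theca-like cells ran from 2.21 to 36.0.

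Outside granulosa-like cells, Nppc was compared with the level that free RNA can leave in a droplet. T or NK lymphocyte-like and erythroid-like cells, which should lack Nppc, held 1, 3, 20 and 17 Nppc UMIs, or 1.19, 4.96, 23.2 and 27.6 CPM. Stroma-like cells stood at 3.75, 5.97, 11.8 and 12.0 CPM and mural smooth muscle-like cells at 3.13, 4.26, 10.9 and 12.9. In the libraries with AMH both classes were below the lymphocyte and erythroid level. Mural cluster 20, led by Rgs5, was above it there, at 28.8 CPM in doxorubicin+AMH and 30.2 in AMH, and the other clusters compared in these classes were below it. Without AMH, stroma-like cells were above it in both libraries and mural cells only in control. How much of these levels was free RNA was not tested. Theca-like cells, the steroid-making cells of the follicle wall, held 12.0, 13, 19.1 and 12.6 CPM. This was above the lymphocyte and erythroid level without AMH and below it with AMH. Of the 316 UMIs in control theca-like cells, 53 came from 1 cell. Of the 3 theca-like clusters, cluster 15 had the highest level in each library, at 25.4, 32.4, 47.7 and 26.1 CPM. Oviduct-type epithelial-like cells had 181 Nppc UMIs in control, 72 of them in 1 cell, and 55 in doxorubicin+AMH, 43 of them in 1 cell. Neither level describes that class.

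The higher Nppc level with AMH was seen both as more granulosa-like cells with an Nppc UMI and as more UMIs in those cells. After each cell was thinned to 2000 UMIs, which left out 53, 124, 95 and 130 shallower cells, 12.7%, 15.5%, 31.8% and 26.2% of granulosa-like cells held Nppc. Without thinning the shares were 52.6%, 55.3%, 69.3% and 61.4%. In lymphocyte-like and erythroid-like cells, whose median UMIs per cell were 5660, 6064, 5261 and 4630, the thinned shares were 0%, 1.30%, 2.61% and 3.95%. Thinned cells that held Nppc carried on average 1.41, 1.36, 1.98 and 1.66 UMIs of it. At least 5 UMIs after thinning were held by 0.286%, 0.107%, 2.06% and 1.03% of granulosa-like cells. The 10% of granulosa-like cells with the most Nppc carried 58.9%, 59.9%, 53.0% and 58.5% of its UMIs, so the transcript was unevenly spread in all 4 libraries.

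**Figure D2:**
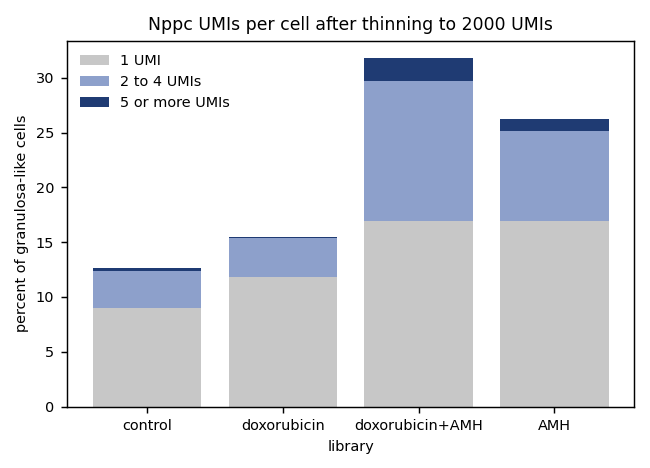
Percent of granulosa-like cells (vertical axis) with 1, 2 to 4, or 5 or more Nppc UMIs after thinning to 2000 UMIs, for each library (horizontal axis). The stacked bars reach 12.7% for control and 15.5% for doxorubicin, and the taller ones with AMH reach 26.2% without and 31.8% with doxorubicin.

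Granulosa-like cells formed 7 clusters with at least 50 cells in every library, and Nppc differed among them more than between treatments. It was highest in cluster 5, led by Inhba, the activin subunit gene of antral follicles, at 267, 280, 728 and 511 CPM. Cluster 6, led by Inhbb and with the highest median UMI count of the granulosa-like clusters (39035), had 80.0, 98.3, 265 and 240 CPM. Whether doublets remained among cells of such depth was not tested. Cluster 9, led by Fst, the activin-binding protein follistatin, had 61.6, 83.5, 176 and 149 CPM. Lower levels than in these 3 clusters, in every library, were found in cluster 4, led by the potassium channel gene Kcnq5 (42.0, 36.5, 72.3 and 52.8 CPM), and cluster 11, led by Cntn4 with Amh among its leading genes (26.2, 32.5, 99.1 and 94.7 CPM). Clusters 13 and 16, with median UMIs per cell of 3120 and 3525, stood at 65.1, 55.6, 151 and 83.8 CPM and at 68.5, 71.8, 295 and 167 CPM.

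All 7 clusters had more Nppc in the library with AMH in both pairs. For AMH against control the fold ran from 1.26 (1.14 to 1.38) in cluster 4 to 3.61 (3.19 to 4.09) in cluster 11, and the interval of cluster 13 (1.29, 0.875 to 1.94) included 1. For doxorubicin+AMH against doxorubicin it ran from 1.98 (1.77 to 2.22) in cluster 4 to 4.1 (2.82 to 6.09) in cluster 16. Cluster 11 held 17.6% and 16.7% of granulosa-like cells without AMH and 7.78% and 9.53% with doxorubicin+AMH and AMH, and cluster 5 held 18.3%, 17.9%, 22.4% and 20.8%. Giving the 7 clusters equal weight left log2 differences of 1.05 and 1.39 in the AMH pairs. For doxorubicin against control, Nppc was lower in cluster 4 (0.867-fold, 0.775 to 0.971) and higher in clusters 6, 9 and 11 (1.23, 1.36 and 1.24). The intervals of clusters 5, 13 and 16 included 1. For doxorubicin+AMH against AMH the fold ran from 1.05 (0.934 to 1.17) in cluster 11 to 1.80 (1.40 to 2.32) in cluster 13. Cluster 31, led by Amh, had 77 of its 82 cells in doxorubicin, where Nppc stood at 31.2 CPM, and is not compared.

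**Figure D3:**
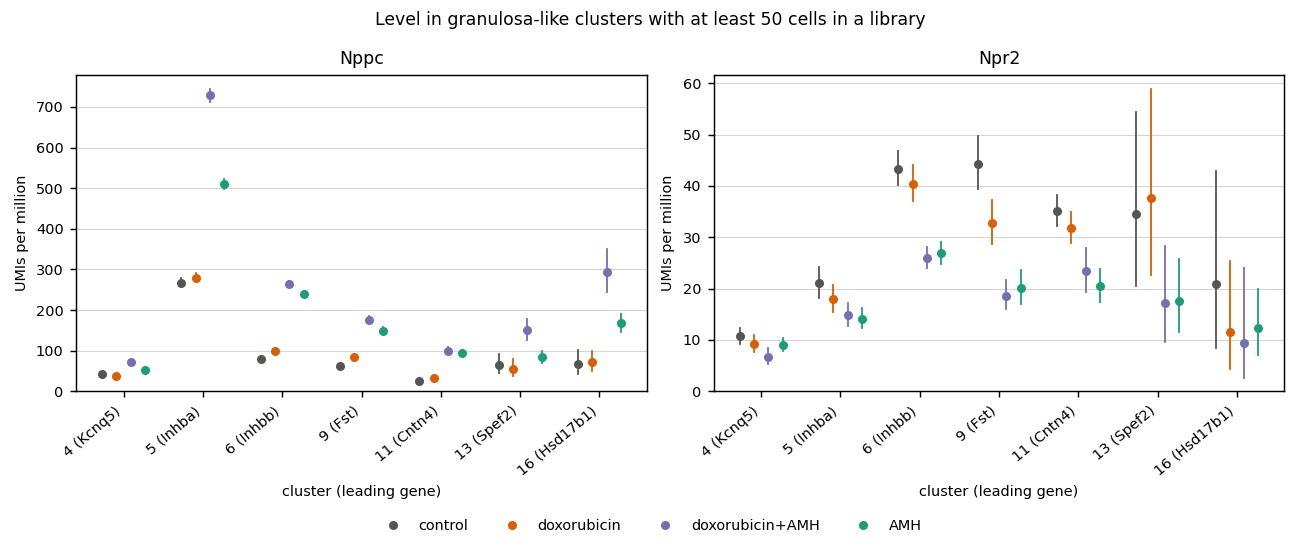
Level of Nppc and Npr2 (CPM) in the 7 granulosa-like clusters, with 1 point per library and bars for the exact 95% Poisson interval. Nppc in cluster 5 reached 728 in doxorubicin+AMH, and Npr2 in cluster 9 lay at 44.3 in control and 18.6 in doxorubicin+AMH.

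Npr2, the CNP receptor, was found in granulosa-like, mural smooth muscle-like and stroma-like cells, which held 54.4%, 13.3% and 20.2% of its 11074 UMIs. In granulosa-like cells it stood at 29.4, 25.6, 19.1 and 17.6 CPM. The split by AMH was opposite to that of the ligand: both libraries with AMH were below both without it. The full order was not reversed, as Npr2 was lowest with AMH alone and Nppc highest with doxorubicin+AMH. The level was 0.599-fold with AMH relative to control (0.559 to 0.643) and 0.743-fold with doxorubicin+AMH relative to doxorubicin (0.689 to 0.802). Only the first difference, a log2 value of -0.60 against -0.35, passed 1.5-fold, where 1.74% and 1.98% of granulosa genes were at least 1.5-fold lower. It was the number 104 from the lowest of 6617 genes in the first pair and 394 in the other. Relative to control, doxorubicin alone had 0.873-fold (0.816 to 0.934), and doxorubicin+AMH had 1.08-fold the level of AMH alone (1.00 to 1.17).

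The lower Npr2 level recurred in every granulosa-like cluster compared, though not beyond counting error in each. Cluster 9 went from 44.3 CPM in control to 20.2 with AMH (0.455-fold, 0.372 to 0.555) and from 32.8 with doxorubicin to 18.6 with doxorubicin+AMH (0.568-fold, 0.463 to 0.695). Fshr, the receptor of follicle-stimulating hormone, is among the leading genes of that cluster. Cluster 6 had 0.619-fold and 0.645-fold in the same pairs. In the AMH and control pair the intervals of clusters 4 and 16 included 1, and in the other pair those of clusters 5 and 16 did. In mural smooth muscle-like cells Npr2 was at 35.2, 30.7, 31.3 and 31.3 CPM, and the intervals of both AMH folds included 1. In its largest cluster, led by Acta2, the AMH library had 0.816-fold the control level (0.699 to 0.952). Stroma-like cells had 20.3, 19.2, 16.5 and 17.1 CPM, or 0.840-fold (0.743 to 0.948) and 0.860-fold (0.761 to 0.972).

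Granulosa-like cells with and without ligand transcripts held the receptor at similarly low shares. After thinning, an Npr2 UMI was found in 3.01% of control cells with an Nppc UMI (1.31% to 5.84%) and 5.18% of those without (4.21% to 6.30%). The shares were 4.14% and 4.50% with doxorubicin, 3.10% and 3.42% with doxorubicin+AMH, and 3.27% and 3.63% with AMH, with overlapping intervals in each library. At this depth a difference in co-detection was not detectable.

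**Figure D4:**
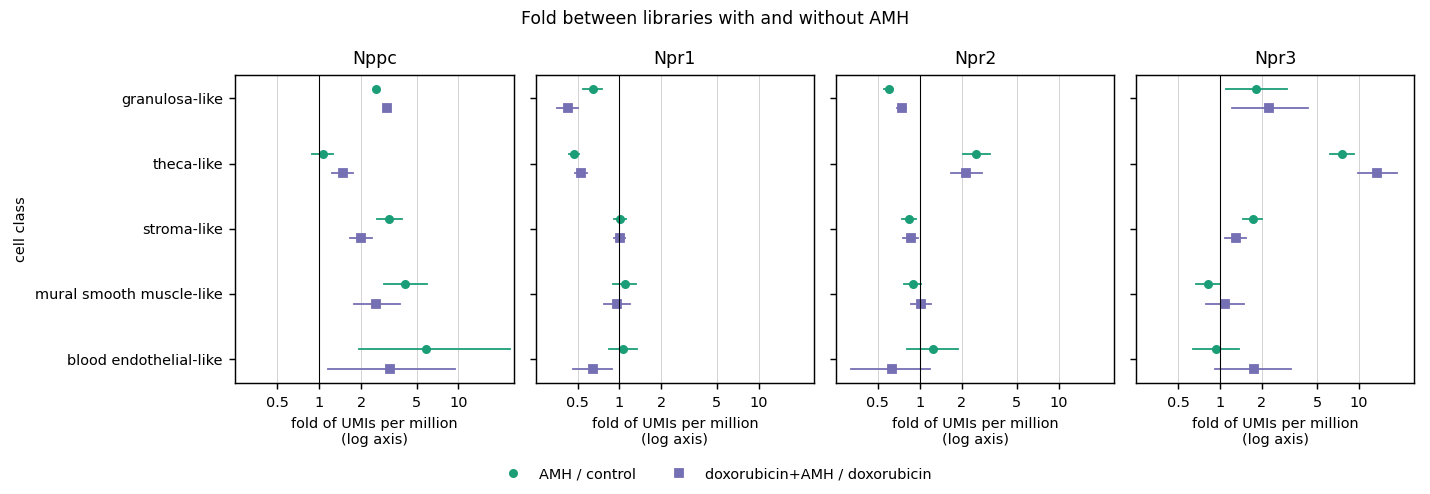
Fold of each member (log axis) between libraries with and without AMH in 5 cell classes, as circles for AMH against control and squares for doxorubicin+AMH against doxorubicin, with exact 95% intervals; the line marks 1. Npr2 lies below 1 in granulosa-like cells (0.599 and 0.743) and above 1 in theca-like cells (2.56 and 2.17).

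The theca-like class was made up differently in the libraries, and this stands beside each of its values. Cluster 10, led by Cyp17a1, the androgen-making enzyme, held 78.4%, 72.5%, 7.25% and 5.13% of theca-like cells, and cluster 7, led by the luteinizing hormone receptor gene Lhcgr, held 4.90%, 4.02%, 74.9% and 81.2%. The summed level of the 7 theca markers was 18078, 17419, 7468 and 6482 CPM, that of the 8 stroma markers 804, 793, 1526 and 1596, and that of 12 genes of tissue dissociation stress 8795, 9619, 11827 and 12094. In granulosa-like cells the stress genes summed to between 5659 and 6076. The part of these shifts in the theca values was not tested. Only cluster 15, also led by Cyp17a1, held at least 50 cells in each library (143, 140, 128 and 122).

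Npr1, the receptor for atrial and B-type peptides, had most of its UMIs in theca-like cells (37.0% of 13033) and stroma-like cells (26.9%). In theca-like cells it stood at 80.6, 71.3, 37.7 and 38.1 CPM. The libraries with AMH were lower, by 0.473-fold (0.433 to 0.515) and 0.529-fold (0.480 to 0.583). Among 6259 theca genes 8.16% and 8.23% were at least 1.5-fold lower in these pairs and 6.44% in both. Within cluster 10 the levels were 89.7, 80.6, 55.9 and 41.7 CPM, the last 2 from 52 and 46 cells, and within cluster 7 they were 51.3, 39.0, 40.4 and 42.9, the first 2 from 42 and 24 cells. Within cluster 15 they were 29.0, 28.2, 25.7 and 20.2, or 0.697-fold (0.512 to 0.946) and 0.912-fold (0.680 to 1.23).

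The highest Npr1 level was in the surface epithelial-like cells that cover the ovary, at 143, 134, 172 and 127 CPM from 108, 93, 38 and 64 cells. Lymphatic endothelial-like cells had 69.4, 71.1, 74.6 and 61.8 CPM, and their intervals overlapped in all 4 libraries. Blood endothelial-like cells had 46.2, 70.0, 45.0 and 49.3 CPM. Doxorubicin had 1.52-fold the control level (1.23 to 1.87), but doxorubicin+AMH had 0.912-fold that of AMH (0.644 to 1.27). On the log2(CPM + 5) scale the first difference was 0.55, which did not pass 1.5-fold. On that scale 1.1% of 6922 genes were at least 1.5-fold higher with doxorubicin than in control. Stroma-like cells had 28.9, 28.9, 29.0 and 29.0 CPM, and the intervals of all 4 folds lay between 0.903 and 1.11. Cluster 3 of the stroma, led by the growth factor receptor gene Pdgfra, stood higher at 63.4, 74.9, 62.9 and 65.3 CPM. Granulosa-like cells had 6.07, 6.80, 2.88 and 3.89 CPM. Lymphocyte-like and erythroid-like cells had 3.58, 0, 2.32 and 3.25 CPM, from only 3, 0, 2 and 2 UMIs. Their intervals, 0.281 to 8.37 in doxorubicin+AMH and 0.394 to 11.8 in AMH, held the granulosa-like levels of those libraries. The control interval, 0.738 to 10.5, held it too, but the doxorubicin interval, 0 to 6.10, lay below the granulosa-like level. In the AMH pairs granulosa-like Npr1 had 0.641-fold (0.550 to 0.747) and 0.424-fold (0.354 to 0.506). Npr1 was under the filter in these cells, at a mean of 4.91 CPM. Of the 398 UMIs in control granulosa-like cells, 21 came from 1 cell. Whether the granulosa-like UMIs were free RNA was not tested.

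Npr3, the clearance receptor, was the sparsest member, with 3450 UMIs in kept cells, 37.2% of them in theca-like, 35.3% in stroma-like and 17.1% in mural smooth muscle-like cells. In theca-like cells it stood at 4.77, 2.21, 29.7 and 36.0 CPM. Both libraries with AMH were higher, 7.55-fold above control (6.23 to 9.21) and 13.4-fold above doxorubicin (9.85 to 18.7). Its mean of 18.2 CPM was under the filter, so it has no rank. For scale, 5.72% and 5.27% of theca genes past the filter were at least 1.5-fold higher in these pairs. In the AMH library 63 of 649 UMIs came from 1 cell.

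Within theca-like clusters the Npr3 difference was not uniform. Cluster 7 held 10 UMIs (19.0 CPM, 9.11 to 34.9) in control, 2 UMIs (4.11, 0.497 to 14.8) in doxorubicin, and 38.5 and 45.7 CPM in doxorubicin+AMH and AMH. Cluster 10 had 3.46, 1.78, 6.52 and 15.5 CPM, with 13 of the 19 UMIs of the AMH library in 1 cell. In cluster 15 it was 10.8, 4.12, 12.6 and 8.79 CPM. The fold there was 0.815 for AMH against control (0.497 to 1.33) and 3.06 for doxorubicin+AMH against doxorubicin (1.64 to 6.14). The AMH difference of the whole class was thus not seen within cluster 15 against control.

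**Figure D5:**
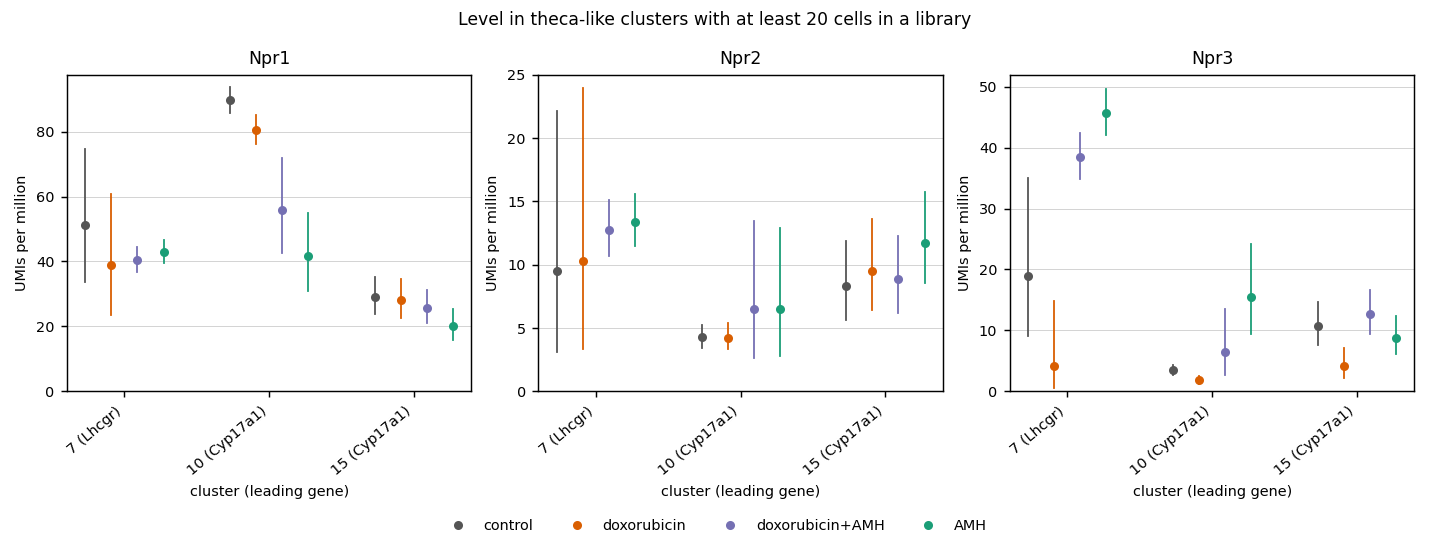
Level of Npr1, Npr2 and Npr3 (CPM) in the 3 theca-like clusters, with 1 point per library with at least 20 cells and bars for the exact 95% Poisson interval. Npr1 in cluster 10 ran from 89.7 in control to 41.7 in AMH, and Npr3 in cluster 7 reached 45.7 in AMH.

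Elsewhere Npr3 marked a perivascular cluster. Cluster 20 of the mural class, led by the pericyte gene Rgs5, had 81.0, 52.8, 61.2 and 57.9 CPM, the highest of the clusters described for this gene. The 4 intervals overlapped, and the fold of doxorubicin against control was 0.651 (0.453 to 0.926). In the whole mural class the level was 17.5, 8.52, 9.24 and 14.5 CPM, 0.486-fold with doxorubicin relative to control (0.369 to 0.634) and 0.638-fold with doxorubicin+AMH relative to AMH (0.497 to 0.817). For scale, 1.38% of 6596 mural genes past the filter were at least 1.5-fold lower in the first comparison. Npr3, at a mean of 12.4 CPM, was under that filter. Cluster 17, led by Des, held 19.4%, 3.27%, 6.75% and 19.8% of mural cells, or 199, 20, 56 and 185 cells. It had 24.7 and 27.1 CPM in control and AMH. The few cells in doxorubicin and doxorubicin+AMH held 1 and 6 UMIs, and no level is given for them. In cluster 1, led by the smooth muscle actin gene Acta2 named above, the levels were 7.03, 3.09, 4.84 and 7.15 CPM. Blood endothelial-like cells had 19.1, 9.90, 17.4 and 17.9 CPM from 69, 28, 19 and 50 UMIs. There doxorubicin had 0.519-fold the control level (0.322 to 0.816), and doxorubicin+AMH had 0.976-fold that of AMH (0.543 to 1.68). With doxorubicin against control, 0.867% of the genes past the filter in that class were at least 1.5-fold lower. Npr3 was under the filter there too, at a mean of 16.1 CPM. Stroma-like cells had 8.14, 8.39, 10.9 and 14.0 CPM, 1.72-fold higher with AMH (1.47 to 2.02) and 1.30-fold in the other pair (1.10 to 1.53). Its Pdgfra-led cluster 3, at 28.9, 21.7, 30.3 and 28.7 CPM, held the most Npr3 of the stroma, with folds of 0.995 (0.773 to 1.28) and 1.40 (1.07 to 1.82) in these pairs. In granulosa-like cells Npr3 did not reach 1 CPM in any library, at 0.381, 0.266, 0.599 and 0.692 CPM. Lymphocyte-like and erythroid-like cells had 2.39, 0, 1.16 and 4.88 CPM, from only 2, 0, 1 and 3 UMIs.

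In theca-like cells Npr2 went the other way from granulosa-like cells. It stood at 4.92, 5.23, 11.3 and 12.6 CPM, 2.56-fold (2.05 to 3.20) and 2.17-fold (1.69 to 2.79) higher with AMH. Background was 7.16, 1.65, 2.32 and 8.13 CPM from 6, 1, 2 and 5 UMIs. Within cluster 15 the levels were 8.30, 9.52, 8.83 and 11.7 CPM, and the intervals of both folds included 1.

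The rest of the pathway was followed in lists of 71 genes on the peptides and cGMP, the follicle and tissue dissociation stress, of which 35 passed 20 CPM in granulosa-like cells. Of these 35, 1 was at least 1.5-fold higher and 1 at least 1.5-fold lower in both AMH pairs, against 0.287% and 1.03% of all 6617 genes, and 0 in both doxorubicin pairs in either direction, where 0% of all genes were. The median log2 difference over the 35 was -0.004 for AMH against control and -0.03 for doxorubicin+AMH against doxorubicin, beside -0.06 and -0.03 over all genes. Inhba, whose product is activin A, was the higher one at 479, 576, 1010 and 883 CPM, log2 differences of 0.88 and 0.80. Amh was the lower one at 137, 199, 70.3 and 44.1 CPM, log2 differences of -1.54 and -1.44. Both belong to the list of inputs to Nppc and follicle stage, where 11 of 14 genes passed the filter.

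Inhba and Amh also varied by cluster. Inhba in cluster 5 was 1795, 2109, 2668 and 2374 CPM and in cluster 11 was 42.1, 57.4, 179.5 and 239. Amh in cluster 11 was 271, 401, 211 and 132 CPM. The other natriuretic peptides were nearly absent from granulosa-like cells: Nppa stood at 0.211 CPM and Nppb at 0.00326 CPM on average. Among the steps after the receptor, Gja1, the gap junction protein connexin 43, was at 1144, 1055, 1362 and 1289 CPM, log2 differences of 0.17 and 0.37. The cGMP-hydrolysing phosphodiesterase genes Pde10a (43.2, 39.5, 48.7 and 54.0 CPM) and Pde1a (54.1, 39.4, 44.7 and 60.6 CPM) were the 2 of 10 that passed the filter, and neither passed 1.5-fold. Of the GTP supply genes Impdh2 was at 80.6, 80.0, 82.9 and 70.0 CPM. The ovulatory ligands Areg and Ereg averaged 0.801 and 0.144 CPM.

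In theca-like cells 35 of the 71 genes passed the filter, 7 higher and 3 lower in both AMH pairs, beside 3.91% and 6.44% of all theca genes, and 0 in both doxorubicin pairs, beside 0.016% in each direction. The median over the list was 0.25 for AMH against control and 0.16 for the other pair, beside -0.07 and -0.05 over all theca genes. The higher ones included Mrvi1, a substrate of cGMP-dependent kinase, at 15.7, 16.2, 40.9 and 46.2 CPM, and Pde5a, a cGMP phosphodiesterase, at 72.6, 56.5, 128 and 114. The others were Tnfaip6, Kitl and, from the stress list, Jund, Atf3 and Ier3. Prkg1, a cGMP-dependent kinase, lay just under the filter at 12.4, 6.79, 33.5 and 27.2 CPM. The lower ones were Mme, the neprilysin that degrades natriuretic peptides, at 43.5, 48.3, 12.8 and 10.5 CPM, with Impdh1 and Esr1. The difference in cluster makeup applies to these values too.

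The genes most like each member were found over the 6 classes that had 50 or more cells in every library, as Pearson's r of log2(CPM + 5) over 24 points that share libraries, depth and free RNA. For Nppc they were Inhba (r = 0.975), Kazald1 (0.965) and Crabp2 (0.961), of 10202 genes. Crabp2, a retinoic acid-binding protein, stood at 37.9, 48.1, 128 and 120 CPM in granulosa-like cells. For Npr1 they were Il1r1 (0.947), Lamc1 (0.944) and Tmx3 (0.943), for Npr2 Tgfb1i1 and Zdhhc1 (both 0.946) and Rab11fip3 (0.943), and for Npr3 Rapgef6 (0.904), Egr3 (0.875) and Grm7 (0.868). Il1r1, the interleukin-1 receptor, was at 93.4, 76.8, 37.7 and 31.8 CPM in theca-like cells. Over 29 points of granulosa-like clusters and libraries, the genes most like Nppc were Naglu (0.893), Mgarp (0.868), Inha (0.859), Cst8 (0.854) and Gm15543 (0.845), of 9607 genes. Inha, the inhibin subunit shared by both inhibins, was at 2235, 2218, 3472 and 2822 CPM in granulosa-like cells.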

How the data were processed

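Single-cell 3′ libraries (10x Genomics) of 4 groups were analysed. The deposited matrices hold raw UMI counts, and their software, per the file headers, was Cell Ranger 7.0.0. The submitters' processing notes list mm10, R 4.2.0 and Seurat 4.1.0 with no role. Neither the annotation nor the use of intronic or strand information is given in the sources used here. Gene models are from GRCm38 (the same assembly as mm10) and promoters from RefSeq, where all 4 members matched.

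Barcodes under 1000 UMIs or over 20% mitochondrial UMIs were dropped. Scrublet's automatic threshold (scanpy 1.11.5) marked 1, 135, 5 and 0 cells and was not used; the 590, 328, 390 and 584 highest scores were removed. Log-normalised counts of 2000 variable genes gave 30 principal components and Leiden clusters at resolution 1.0 (leidenalg 0.10.2). A cluster was named where at least 3 and 60% of a marker list were raised in it, and left unnamed where at least 3 classes qualified or, cycling clusters aside, no marker was among its 30 leading genes; these thresholds were set after seeing the data, and names are rebuilt ones.

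Counts were summed per class and library. Levels carry Poisson, shares Clopper-Pearson and folds exact conditional binomial intervals (scipy 1.17.1). Coverage was tested for the fold intervals only, on simulated Poisson counts, so that test does not cover UMIs clumped in a few cells. Differences are on log2(CPM + 5), among genes whose mean level reached 20 CPM; no fold was given with 3 or fewer UMIs on either side. The text names the members, list genes past 1.5-fold in both AMH or both doxorubicin pairs in granulosa-like cells, the 3 genes most alike to each member (5 for Nppc in clusters), and, outside that rule, list genes in theca-like cells and a few others, chosen after their values were seen. The AMH pairs share no library with each other, but each shares libraries with the doxorubicin pairs. Members and lists were chosen with earlier results of these data known. Alternatives were other scaling, pseudocount, filters, gating and resolutions.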

Additional observations from a re-analysis of the deposited data

Results flagged for a closer look

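Npr2 moved in opposite directions in theca-like cells and in 2 other classes in both AMH pairs, with every interval excluding 1; the difference between classes was not tested. The log2 difference for AMH against control was 0.83 in theca-like, -0.60 in granulosa-like and -0.20 in stroma-like cells. For doxorubicin+AMH against doxorubicin it was 0.68, -0.35 and -0.17. Within theca-like cluster 15, which all libraries share, the Npr2 values were 0.33 and -0.07. The direction was not uniform in stroma-like clusters either. Cluster 12 had 1.15-fold for AMH against control (0.879 to 1.49). Clusters 3 and 14 had 1.06-fold (0.788 to 1.44) and 1.26-fold (0.851 to 1.87) in the other pair. The other stroma-like clusters were below 1 in each pair. Npr2 was under the 20 CPM filter in stroma-like and theca-like cells, at means of 18.3 and 8.52 CPM.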

How the results depend on the processing

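No paired analysis was possible because each group has 1 library. Under 12 alternatives Nppc in granulosa-like cells stayed higher with AMH: the log2 difference ranged from 1.05 to 1.44 for AMH against control and from 1.39 to 1.64 for doxorubicin+AMH against doxorubicin. Values beyond the counting interval were 1.41 and 1.64 with median-of-ratios scaling, 1.11 with each cell weighted equally, 1.44 with marker gating of single cells, and 1.05 and 1.39 with equal weight of shared clusters. For Nppc in doxorubicin against control they were 0.27 with marker gating and 0.10 with equal cluster weight (0.20 in the report), and in doxorubicin+AMH against AMH 0.57 with equal cell weight and 0.35 with marker gating (0.45). Npr2 in granulosa-like cells became -0.71 for AMH against control with a pseudocount of 1, -0.20 with equal cell weight and -0.52 with equal cluster weight for doxorubicin+AMH against doxorubicin, and -0.27 for doxorubicin against control with equal cell weight. With equal cluster weight Npr2 for doxorubicin+AMH against AMH changed sign, from 0.09 to -0.041.

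In theca-like cells cluster 15 alone, added after seeing the data, gave opposite signs for Npr3 with AMH against control (-0.19 against 2.07) and with doxorubicin+AMH against AMH (0.35), for Npr1 in the latter (0.28), and for Npr2 with doxorubicin+AMH against doxorubicin (-0.069). Near 0, Npr1 for doxorubicin+AMH against AMH (-0.01) became 0.0099 with median-of-ratios scaling and 0.00099 with a minimum of 500 UMIs, and Npr2 for doxorubicin against control became -0.015 with doublets kept. The cause was not tested. Depth limits Npr3 and all levels in classes of under 100 cells.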
